A study of Macaca mulatta and Mus musculus and Rattus norvegicus with 12 samples.

Results

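Fibroblast growth factors (FGFs) and their receptors were followed in bone enriched for osteocytes, the cells buried in bone matrix, at 2 skeletal sites of 3 species. The 10 genes were the ligands FGF1, FGF2, FGF7, FGF9, FGF10 and FGF18, the receptors FGFR1, FGFR2 and FGFR3, and the receptor-like gene FGFRL1. They were chosen by name, as rows whose symbol in upper case matched, with earlier results of these data known. FGF1 is also among the genes the study selected on these samples. All 10 had a row among the 38599 symbols of mouse and the 35259 of rat. In macaque 6 of the 10 stood under their own symbol, and FGF9, FGF10 and FGF18 were found as numbered LOC rows that RefSeq pairs with those names, which gave 9 among 28641 symbols. FGF7 had no row in macaque and was not analysed there.

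The samples were poly(A)+ RNA libraries from 2 bones, the calvaria that roofs the skull and the tibia or shin bone. C57BL6 mice aged 4 months gave 2 libraries per site, each pooled from 3 animals, and Wistar rats aged 6 months gave 1 library per site, pooled from 2 animals. Rhesus macaques (Macaca mulatta) gave 3 libraries per site, each from 1 animal, with an age that the labels put at 4 to 6 months and the methods of the study at the same number of years. All animals were female, none carried a transgene or received a treatment according to the labels, and the bone was stripped of periosteum and digested briefly with collagenase before freezing. The libraries are M4 and M8 (calvaria) and M5 and M7 (tibia) in mouse, R1 (calvaria) and R3 (tibia) in rat, and G1, G3 and T1 (calvaria) and G2, G4 and T2 (tibia) in macaque. Species, genome annotation and sequencing lane changed together, so they cannot be told apart between macaque and the rodents. Since whole bone powder was sequenced, fewer cells of a type and less RNA per cell cannot be told apart either. Libraries held between 7951585 and 16826535 reads on genes, and the FGF genes took between 0.00669% (T1) and 0.212% (R3) of them.

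FGF ligands are secreted proteins that bind receptor tyrosine kinases on the cell surface together with heparan sulfate, a sugar chain of proteoglycans. The activated receptor signals through adaptors to the RAS and MAP kinase cascade, and induces inhibitors such as Sprouty proteins and phosphatases that dampen the signal. FGFRL1 binds ligands but lacks the kinase domain. In the skeleton, activating mutations of FGFR1, FGFR2 and FGFR3 are known causes of premature fusion of skull sutures, and FGFR3 restrains growth of the cartilage growth plate, for which FGF18 and FGF9 are known ligands. FGF7 and FGF10 signal mainly through an FGFR2 isoform of epithelia, FGF1 can bind all of the signalling receptors, and FGF2 is a long studied growth factor of bone-forming cells.

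The comparison of receptor levels rests on reads being told apart between genes of one family. Over their aligned coding sequences in GENCODE vM21 transcripts of the mouse, Fgfr1 and Fgfr2 were 71.1% identical, Fgfr1 and Fgfr3 68.1%, and Fgfr2 and Fgfr3 67.8%. Overlap with other genes touched mainly Fgfr3, which shared 13.9% of its exonic bases with G630022F23Rik on the opposite strand, and Fgf2, which shared 9.44% with Nudt6 on the opposite strand. The methods of the study state counting without regard to strand, under which reads in those stretches cannot be assigned to one of the 2 genes.

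FGFR1 was the most abundant FGF gene of the rodents, with FGFR2 next to it in mouse, while a ligand led in macaque tibia. Levels between genes are compared as CPM, reads per 1000000 reads on genes, per kilobase of exon, the per-length scale. In mouse calvaria FGFR1 stood at 34.6 CPM per kb and FGFR2 at 18.1, and in mouse tibia at 70.6 and 15.9. Among all symbols read in mouse, averaged over the 4 libraries, FGFR1 lay at percentile 94.6 of the per-length level, FGFR2 at 84.6, FGFR3 and FGF1 both at 65.8, and FGF10 at 18.5. In rat FGFR1 also led, at 49.2 CPM per kb in calvaria and 506 in tibia, and lay at percentile 98.8. In macaque FGFR2 and FGFR1 led in calvaria with 8.62 and 6.86 CPM per kb, and their ranges over libraries overlapped (6.99 to 9.76 against 6.23 to 7.48). In macaque tibia FGF1 came first with 11.9 CPM per kb (10.9 to 12.7), above FGFR2 with 9.79 (9.44 to 10.5) and FGFR1 with 7.34 (7.17 to 7.50), and these 3 ranges did not overlap.

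Below the receptors the order was less distinct. In mouse calvaria FGFR3 (2.66 to 7.63 CPM per kb), FGFRL1 (2.01 to 4.31), FGF7 (1.63 to 2.95), FGF1 (1.72 to 2.11) and FGF9 (1.67 to 1.84) followed each other with overlapping ranges. In mouse tibia FGF1 (7.80 to 9.52) stood apart from its neighbours, FGFR2 above it and FGFRL1 (4.82 to 6.23) below it. In macaque calvaria FGF1 (3.58 to 5.81), FGF18 (2.71 to 5.88) and FGFRL1 (2.58 to 5.10) overlapped. FGFR3 was among the 3 leading genes in both rodents at calvaria but came last in macaque calvaria, at 0.118 CPM per kb, and last but one in macaque tibia, at 0.280.

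**Figure D1:**
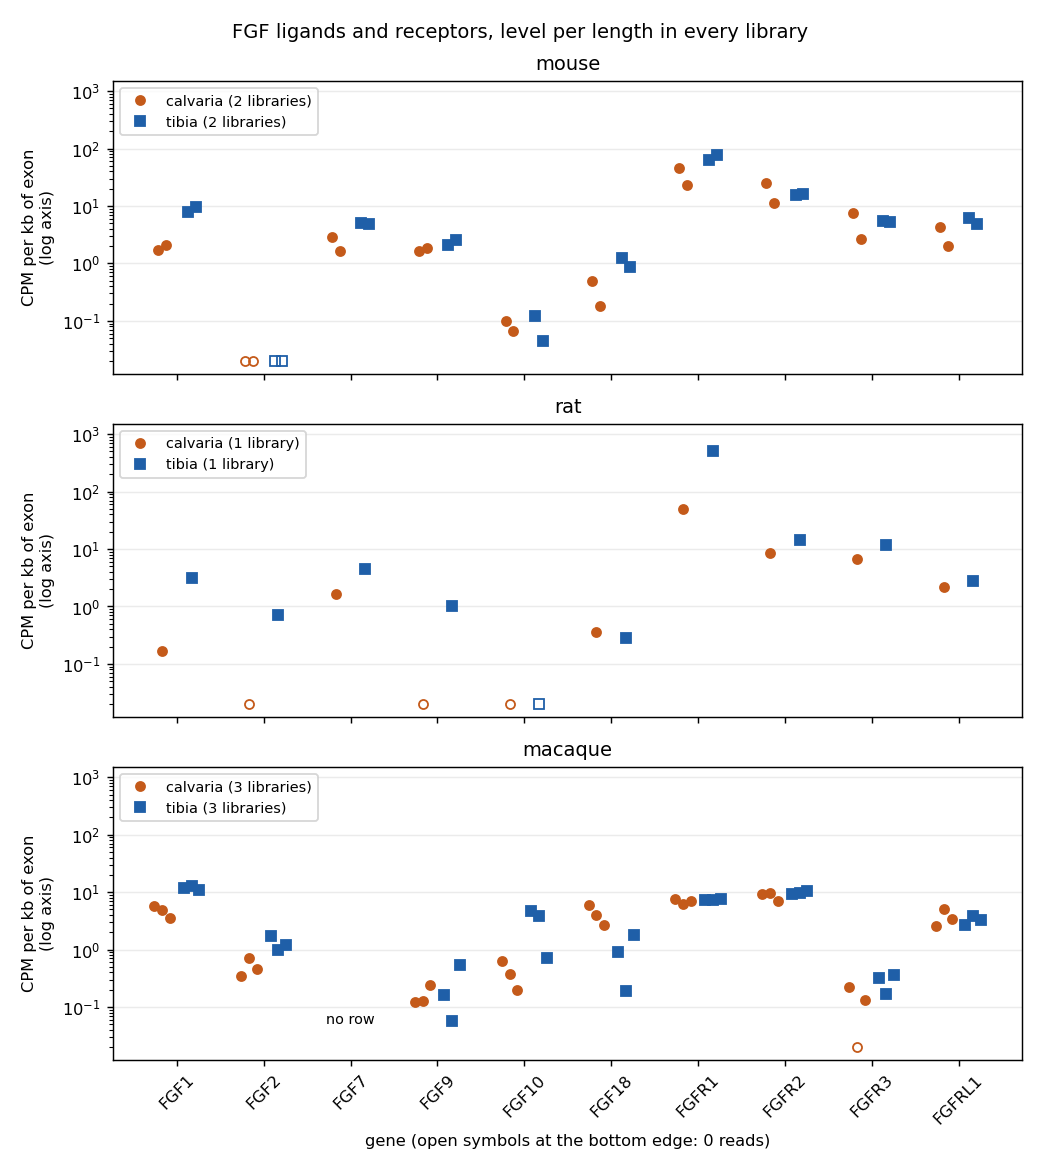
Level per length of every FGF gene in every library, in CPM per kb of exon on a log axis, with a panel for each species; circles are calvaria libraries, squares are tibia libraries, and open symbols at the bottom edge had 0 reads. FGFR1 leads in both rodents and reaches 506 CPM per kb in rat tibia, whereas in macaque FGF1, FGFR1 and FGFR2 lie close together and FGFR3 lies below 1 CPM per kb.

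Calvaria and tibia were compared within each species, with negative log2 fold changes meaning a higher level in tibia. Calls used the thresholds of the study, a false discovery rate below 0.2 and a fold change above 1.1. The 7 FGF genes with reads in all 3 species (FGF1, FGF9, FGF18 and the 4 receptor genes) were tested among 10536 such genes, and FGF2, FGF7 and FGF10 in a fit over all symbols read in their species. In mouse 1 of the 7 was called, FGF1, where 0.304% of all tested genes were called, and neither FGF7 nor FGF10 in the fit over all symbols, where 2.28% were called. FGF2 had no read in mouse and could not be tested. In macaque 2 of the 7 were called, FGF1 and FGF18, where 26.7% of all tested genes were called, and 1 of the other 2, FGF10, in the fit over all symbols, where 19.7% were called. The macaque share is thus close to that of genes at large, and the mouse count rests on 1 gene. Without adjustment, 3 of 9 had p under 0.05 in edgeR in each species. Of the 10536 tested genes, 788 had such a p in mouse and 2735 in macaque. Over all symbols these were 1810 of 22339 in mouse and 4091 of 18894 in macaque. Calls with 1 mouse library left out were 7 of 9 without M4, 5 of 9 without M8, and 0 of 9 without M5 or without M7 (1 of 9 at an unadjusted p under 0.05 in edgeR in either case), but the share of all tested genes called moved too, to 47.9%, 25%, 0.105% and 0.0856%.

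FGF1, a ligand without a signal peptide that binds every signalling receptor, was higher in tibia in every species. Its reads in mouse were 136 (M4) and 140 (M8) in calvaria and 699 (M5) and 705 (M7) in tibia. Both tibia libraries stood far above both calvaria libraries. The normalized level was 9.69 ± 1.39 CPM (SD, n = 2) in calvaria and 43.9 ± 6.17 CPM (SD, n = 2) in tibia. This was a log2 fold change of -2.18 ± 0.24 (SE), or 4.53-fold, with an adjusted p = 0.132 (edgeR, quasi-likelihood). The call was lost without M5 (-2.31) and without M7 (-2.02), at similar fold changes, in fits that leave 1 tibia library. The fold change was -2.05 without M4 and -2.32 without M8. With all mouse libraries the call was kept at the threshold of 0.2 under every alternative tried for this value. The adjusted p ran from 3.82e-08 (edgeR's exact test) to 0.187, with 0.00158 over all symbols and 5.13e-08 by DESeq2.

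In macaque FGF1 gave 212 (G1), 172 (G3) and 130 (T1) reads in calvaria and 481 (G2), 491 (G4) and 494 (T2) in tibia. The sites did not overlap, and the 3 tibia libraries lay close together. The level was 21.0 ± 4.93 CPM (SD, n = 3) against 52.2 ± 4.06 CPM (SD, n = 3), a log2 fold change of -1.31 ± 0.22 (SE) with an edgeR adjusted p = 0.000904. It was called under every alternative tried, with adjusted p of at most 0.0189. In rat FGF1 had 15 reads in calvaria and 245 in tibia. That made 17.8-fold more in tibia after scaling for depth, with a log2 ratio of -4.07 when 1 read was added (95% exact interval of the ratio without it -5.02 to -3.41, counting error only, no replicates). FGF1 is one of the genes the study itself selected on these samples, so its direction here is not independent evidence.

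FGF10, a ligand known from budding morphogenesis of limb and lung, was higher in macaque tibia. Its reads there were 16 (G1), 9 (G3) and 5 (T1) in calvaria and 131 (G2), 100 (G4) and 22 (T2) in tibia. All tibia libraries exceeded all calvaria libraries, but T2 lay close to the calvaria range and well below G2 and G4. The level was 1.22 ± 0.667 CPM (SD, n = 3) in calvaria and 9.29 ± 6.37 CPM (SD, n = 3) in tibia, a log2 fold change of -2.91 ± 0.54 (SE) with an edgeR adjusted p = 0.000144 over all symbols of macaque. In mouse (gene at chr13:118669791-118792115 on GRCm38) FGF10 had only 7 and 4 reads in calvaria and 10 and 3 in tibia. The mouse difference had a 95% interval from -2.91 to 2.83 on the log2 scale, so a change of the macaque size was not detectable at this depth. In rat neither library had a read, which allows up to 3 reads, or 0.210 CPM in R1 and 0.245 CPM in R3. The rat row of FGF10 covers only 648 bases (4572 in mouse), and in the rat table even COL1A2, a main collagen of bone, is listed at 0 in both libraries, so a 0 there need not limit expression.

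FGF18, a ligand of bone formation and of the growth plate, was the only FGF gene called higher in calvaria among the fits of both species. In macaque it had 59 (G1), 38 (G3) and 27 (T1) reads in calvaria and 10 (G2), 2 (G4) and 22 (T2) in tibia. The lowest calvaria library and T2 lay near each other, but the sites did not overlap after normalization. The level was 5.05 ± 1.94 CPM (SD, n = 3) in calvaria and 1.15 ± 0.955 CPM (SD, n = 3) in tibia, a log2 fold change of 2.10 ± 0.61 (SE) with an edgeR adjusted p = 0.0354. In mouse (gene at chr11:33117430-33147400 on GRCm38) the reads were 13 (M4) and 4 (M8) in calvaria and 37 (M5) and 22 (M7) in tibia, with the higher values in tibia. The mouse log2 fold change was -1.63 ± 0.76 (SE) with an edgeR adjusted p = 0.707, so that direction did not pass the test. The fold change was -2.55 without M4 and -1.10 without M8, in fits that leave 1 calvaria library. In rat 3 reads in calvaria and 2 in tibia gave no usable ratio.

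The site difference of FGF18 was then compared between mouse and macaque in a single fit of 10 libraries with a species by site interaction. The log2 fold change was 3.75 ± 1.12 (SE) higher in macaque than in mouse, with an edgeR adjusted p = 0.162, and FGF18 was the 1 gene called of the 7, where 5.00% of the tested genes were called. It lost the call when any of 7 libraries was left out, M5, M7, G1, G2, G3, G4 or T1, with differences from 3.28 to 3.99 and adjusted p from 0.212 to 0.532. FGFR1 and FGF1 had the next smallest p-values of the 7, with differences of 0.95 ± 0.36 (SE, adjusted p = 0.266) and 0.88 ± 0.34 (SE, adjusted p = 0.284), both not called. For FGF10 the difference was -2.85 ± 1.29 (SE, adjusted p = 0.359) in a fit over symbols read in mouse and macaque, where 4.89% of symbols were called. Since species, lane and annotation changed together, these differences compare the data of the species and not the species alone.

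**Figure D2:**
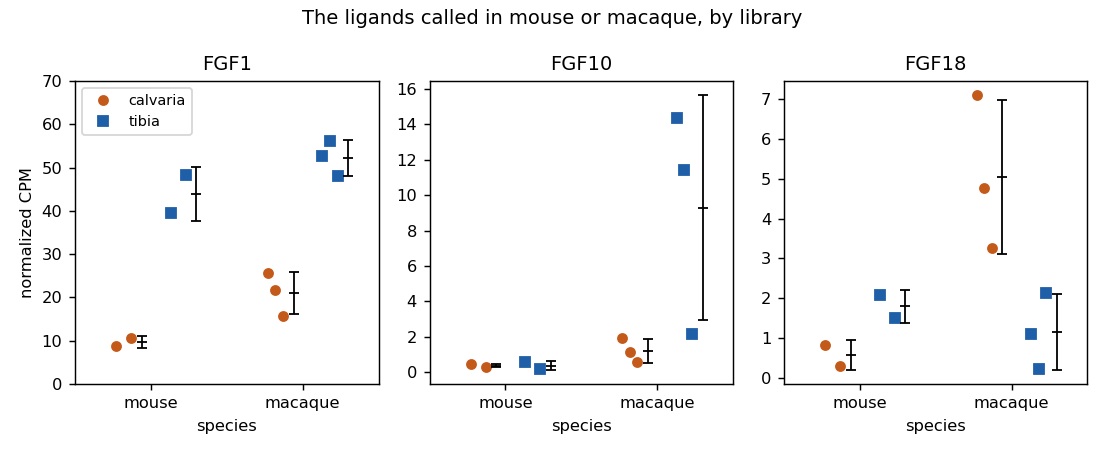
Normalized CPM of FGF1, FGF10 and FGF18 in each mouse and macaque library (circles calvaria, squares tibia), with the mean and SD of each site as black bars beside the points. FGF1 is higher in tibia in both species, FGF10 is higher in tibia in macaque with T2 at 2.14 CPM, and FGF18 is higher in calvaria in macaque while its 2 mouse tibia libraries lie above the 2 calvaria libraries.

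The other 3 ligands were not called with all libraries in the fits given above. FGF7, a ligand made by mesenchymal cells (gene at chr2:126034658-126091185 on GRCm38), had 123 (M4) and 57 (M8) reads in mouse calvaria and 236 (M5) and 187 (M7) in tibia. Its level was 6.11 ± 2.49 CPM (SD, n = 2) against 13.1 ± 0.385 CPM (SD, n = 2) without overlap, with a log2 fold change of -1.09 ± 0.38 (SE) and an edgeR adjusted p = 0.331 over all symbols. In rat FGF7 had 84 reads in calvaria and 202 in tibia, a log2 ratio of -1.38 (95% exact interval -1.78 to -1.02, counting error only). Both rodents thus held more FGF7 reads in tibia, in mouse without passing the test. The mouse log2 fold change was -1.61 without M4 and -0.74 without M8, in fits that leave 1 calvaria library.

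FGF9, a ligand of limb and joint development (gene at chr14:58070547-58112720 on GRCm38), gave 130 and 120 reads in mouse calvaria and 187 in each tibia library. The log2 fold change was -0.42 ± 0.27 (SE), with an edgeR adjusted p = 0.754. In rat FGF9 had no read in calvaria and 13 in tibia, which is 4.73-fold more in tibia when R1 is set to 3 reads. That fold takes the 13 reads as counted, although their 95% exact range was 6.92 to 22.2. In macaque it had at most 4 reads in a calvaria library and 11 in a tibia library (T2), too few to show a difference (95% interval -3.10 to 1.85 on the log2 scale).

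FGF2 had no read in any of the 4 mouse libraries, which allows up to 3 reads in each, or between 0.170 and 0.229 CPM. The mouse row of FGF2 covers 1274 bases, where GENCODE vM21 has 6782 exonic bases, so these limits hold for reads on that row only. In rat R1 held 0 reads and R3 held 9, at least 3.28-fold more in tibia with R1 set to 3 reads. In macaque it had 3, 6 and 4 reads in calvaria (G1, G3, T1) and 17, 9 and 13 in tibia (G2, G4, T2). The macaque sites did not overlap, yet the log2 fold change of -1.35 ± 0.88 (SE) had an edgeR adjusted p = 0.398 over all symbols. Among genes with a read in every macaque library, the filter of the study, FGF2 was called with an edgeR adjusted p = 0.166.

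FGFR1 (ENSMUSG00000031565 in mouse, gene at chr8:25513654-25575718 on GRCm38), the receptor with the highest level in rodent bone, had more reads in tibia in both rodents and similar levels at the sites in macaque. In mouse it had 4496 (M4) and 1872 (M8) reads in calvaria and 7101 (M5) and 6961 (M7) in tibia. The calvaria libraries differed from each other by 2.02-fold in level, M4 lying nearer to the tibia libraries. The mean levels were 215 ± 103 CPM (SD, n = 2) and 439 ± 53.0 CPM (SD, n = 2), a log2 fold change of -1.02 ± 0.37 (SE) with an edgeR adjusted p = 0.636. The log2 fold change was -1.63 without M4 and -0.59 without M8. Each of these fits leaves 1 calvaria library, so the spread between M4 and M8 does not enter and no p-value is given. In rat 2653 reads in calvaria stood against 23379 in tibia, which was 9.63-fold more in tibia after scaling, a log2 ratio of -3.27 (95% exact interval -3.33 to -3.21, counting error only). In macaque the reads were 191, 153 and 175 in calvaria (G1, G3, T1) and 202, 198 and 238 in tibia (G2, G4, T2). The macaque log2 fold change was -0.09 with a 95% interval from -0.54 to 0.35, which leaves out a change as large as the rat ratio.

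FGFR2 (ENSMUSG00000030849 in mouse, gene at chr7:130162451-133123350 on GRCm38), a receptor of osteoblast-lineage cells, had 2116 (M4) and 813 (M8) reads in mouse calvaria and 1493 (M5) and 1290 (M7) in tibia. The tibia libraries lay between the 2 calvaria libraries, and the log2 fold change was 0.20 ± 0.39 (SE) with an edgeR adjusted p = 0.901. The direction turned with the calvaria library used, to -0.49 without M4 and 0.66 without M8. In rat FGFR2 had 934 reads in calvaria and 1395 in tibia, a log2 ratio of -0.71 (95% exact interval -0.83 to -0.59). In macaque its log2 fold change was -0.18 (95% interval -0.60 to 0.24) with overlapping sites.

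FGFR3 (ENSMUSG00000054252 in mouse, gene at chr5:33721674-33737068 on GRCm38), a receptor that holds back growth plate cartilage, had 645 (M4) and 189 (M8) reads in mouse calvaria and 534 (M5) and 415 (M7) in tibia. Again the calvaria libraries enclosed the tibia libraries in level, with 41.3 and 14.4 CPM against 30.2 and 28.4 CPM, and the log2 fold change was -0.06 ± 0.50 (SE, edgeR adjusted p = 0.982). It became -1.04 without M4 and 0.51 without M8. The rat libraries held 423 (R1) and 630 (R3) reads, a log2 ratio of -0.70, and in macaque between 0 and 10 reads per library. The macaque log2 fold change of -1.21 (95% interval -3.56 to 1.13) was too imprecise to give a direction.

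FGFRL1, the receptor without a kinase, had 179 (M4) and 70 (M8) reads in mouse calvaria and 293 (M5) and 187 (M7) in tibia. Its mouse log2 fold change was -0.80 ± 0.43 (SE) with an edgeR adjusted p = 0.725, although the sites did not overlap. It became -1.47 without M4 and -0.35 without M8. In rat 74 reads in calvaria and 81 in tibia gave a log2 ratio of -0.26, whose exact interval from -0.73 to 0.21 includes no difference. In macaque the log2 fold change was 0.20 (95% interval -0.64 to 1.04), and it turned to -0.11 without G3.

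In rat 8 FGF genes had over 3 reads in a library. Of these 4, FGF1, FGF2, FGF9 and FGFR1, passed a log2 ratio of 2 with 1 read added, all higher in tibia. FGF2 and FGF9 had 0 reads in calvaria and were among the 8 only through their tibia reads, so their passing is no support. FGF10 and FGF18, with 3 reads or fewer in each library, were left out. With R1 set to 3 reads FGF2 was 3.28-fold higher, short of that size. This leaves 3 genes, FGF9 only with R1 set so and with the counting error of its tibia reads left out. Of all tested genes in rat, 7.16% passed that size, 673 of them higher in tibia and 81 higher in calvaria. That share used no limit of 3 reads and does not cover FGF2 and FGF7, so it is not like for like. With 5 reads added in place of 1, FGF2 (-1.61) and FGF9 (-1.98) no longer passed. The rat values compare 2 libraries and carry no test.

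**Figure D3:**
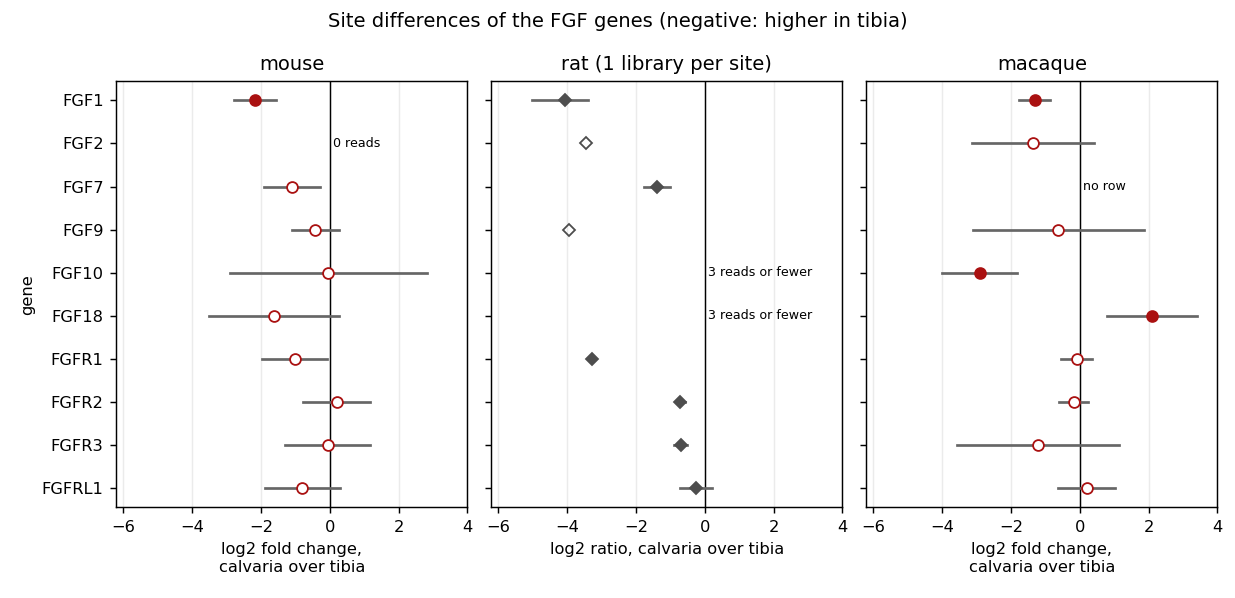
Site difference of each FGF gene on the log2 scale, calvaria over tibia, in mouse, rat and macaque; for mouse and macaque points are edgeR log2 fold changes with 95% intervals and filled points were called, and for rat diamonds are log2 ratios with exact intervals for counting error, open where calvaria had 0 reads. FGF1 lies left of 0 in all 3 species, FGF10 lies left and FGF18 right of 0 in macaque, and the macaque intervals of FGFR1 and FGFR2 lie close around 0.

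Within a library the receptors were also set against each other, which does not depend on the scaling between libraries. The ratio of FGFR1 to FGFR2 per length was 1.86 (M4) and 2.01 (M8) in mouse calvaria and 4.16 (M5) and 4.72 (M7) in mouse tibia. The 2 calvaria libraries, which differed by 2.02-fold or more in the level of each receptor gene, were close in this ratio, and the sites did not overlap. On the log2 scale the ratio was 0.95 ± 0.082 (SD, n = 2) in calvaria and 2.15 ± 0.13 (SD, n = 2) in tibia, with p = 0.333 in a two-sided exact permutation test, the smallest that 2 against 2 libraries allow. In rat the ratio was 5.85 in calvaria and 34.5 in tibia. In macaque it was 0.82, 0.638 and 0.986 in calvaria (G1, G3, T1) and 0.759, 0.775 and 0.717 in tibia (G2, G4, T2), with overlap (p = 0.7, two-sided exact permutation test).

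Of the summed per-length level of the 4 receptor genes, FGFR1 took 55.7% to 58.8% in mouse calvaria and 70.3% to 74.5% in mouse tibia. FGFR2 took 29.2% to 29.9% and 15.8% to 16.9%. In rat FGFR1 took 73.9% in calvaria and 94.5% in tibia. In macaque FGFR2 held the largest share in each library, between 40.0% and 48.5%, FGFR1 between 29.5% and 39.4%, FGFRL1 between 13.3% and 24.2%, and FGFR3 at most 1.64%. The mouse shares of FGFR1 and FGFR2 did not overlap between sites (p = 0.333 each, two-sided exact permutation test, the smallest possible), and rat has no replicates. In macaque the shares of FGFR1 had a mean of 35.8% ± 5.47 (SD, n = 3) in calvaria and 35.6% ± 0.951 (SD, n = 3) in tibia. FGFR4, the remaining signalling receptor, had 1 read in M4 and none in the other mouse libraries, and 3.60 CPM in macaque calvaria against 2.74 CPM in tibia on average (edgeR adjusted p = 0.696).

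**Figure D4:**
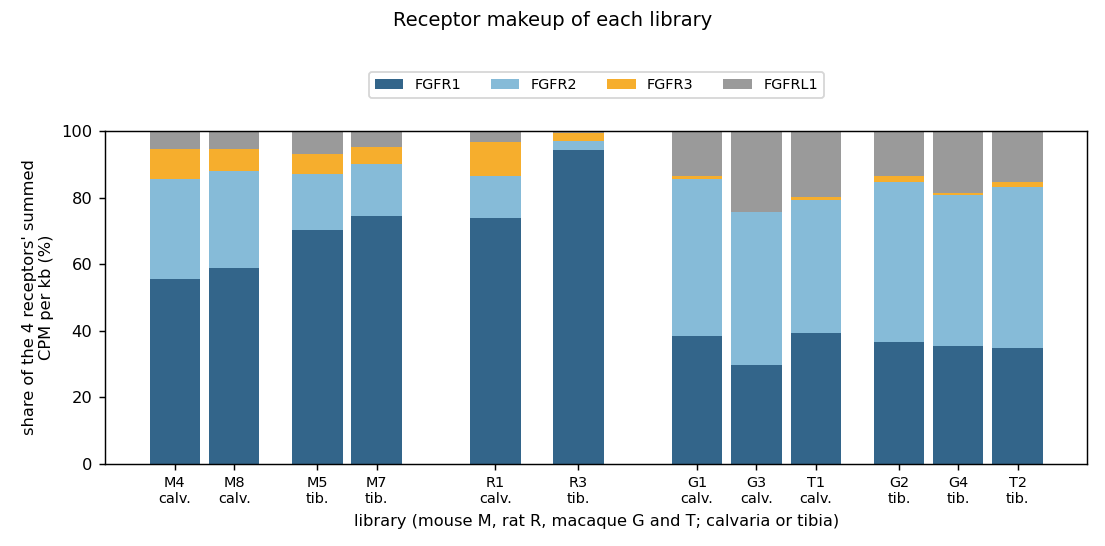
Share of each receptor gene in the summed CPM per kb of FGFR1, FGFR2, FGFR3 and FGFRL1, as stacked bars that add to 100% for each of the 12 libraries, ordered by species and site. FGFR1 fills more of the bar in tibia than in calvaria in mouse and rat, and FGFR2 is the largest part in all macaque libraries.

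The genes whose pattern was most like that of FGF1 over the 12 libraries, after centring log2(CPM + 1) within each species, were TPBG (r = 0.975), MAB21L2 (r = 0.966), GPR116 (r = 0.966), JAM2 (r = 0.965) and HEY2 (r = 0.964). Spearman's rho lay between 0.86 (MAB21L2) and 0.937 (JAM2), and without the rat libraries, which lie farthest from the median, r lay between 0.937 and 0.963. All 5 had a negative log2 fold change in mouse and macaque and a negative log2 ratio in rat. These values are a description, since libraries of a site share the contrast by which FGF1 differed, and TPBG and MAB21L2 are also among the genes the study selected on these samples. TPBG encodes a membrane glycoprotein, JAM2 a junction adhesion molecule and HEY2 a transcription factor downstream of Notch.

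The rest of the FGF pathway was read from lists of related genes, in the fits over all symbols, against the 2.28% of symbols called in mouse and the 19.7% called in macaque. Of other FGF ligands 0 of 12 were called in mouse and 0 of 7 in macaque by edgeR, with 0 in either species at an unadjusted p under 0.05, and the median log2 fold changes were 0.18 and -0.15. Among co-receptors and carriers, mostly proteoglycans that present ligands, 1 of 18 was called in mouse, the syndecan SDC3. Its mean level was 178 CPM in calvaria and 444 CPM in tibia, with 3837 (M4) and 1439 (M8) reads against 7617 (M5) and 6693 (M7), and the adjusted p was 0.104. In macaque 2 of 18 were called, in opposite directions. The glypican GPC4 was higher in tibia, at 91.7 CPM in calvaria against 199 CPM (log2 fold change -1.12, adjusted p = 7.99e-05). The syndecan SDC4 was higher in calvaria but at only 1 to 16 reads per library.

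Among heparan sulfate enzymes, which build and trim the sugar chain that ligands need, 1 of 14 was called in mouse and 4 of 14 in macaque, all higher in tibia. The mouse gene was EXT2, a chain polymerase, whose log2 fold change was -0.98 (adjusted p = 0.175). The macaque genes were SULF1 (-1.06, adjusted p = 0.000261) and SULF2 (-0.61, adjusted p = 0.101), which remove sulfate groups at the cell surface, HS3ST1 (-0.88, adjusted p = 0.00291), which adds them, and GLCE (-0.92, adjusted p = 0.0209), which converts a sugar of the chain. In rat SULF1 had 134 reads in calvaria and 701 in tibia, the only gene of the list past a log2 ratio of 2.

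Among transducers, the adaptors and kinases below the receptor, 0 of 20 were called in mouse by edgeR (0 at an unadjusted p under 0.05) and 4 of 21 in macaque, all higher in tibia. They were GAB1 (log2 fold change -1.33) and PLCG1 (-0.79), an adaptor and a phospholipase that receptors engage, and SOS1 (-0.43) and SOS2 (-0.42), which activate RAS, with adjusted p from 0.0788 to 0.18. The median over the list was 0.0040 in mouse and -0.057 in macaque, beside 0.052 and 0.026 over all symbols.

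Among feedback genes and targets, which are induced by FGF and other MAP kinase signals, 1 of 16 was called in mouse, PHLDA1, at 132 CPM in calvaria and 363 CPM in tibia (adjusted p = 0.0216). The median of the list in mouse was -0.78, against 0.052 over all symbols. In macaque 7 of 14 were called, of which 3 were higher in calvaria and 4 in tibia, and the median was -0.30. DUSP5, a phosphatase of ERK kinases, was higher in calvaria at 186 CPM against 50.9 CPM, a log2 fold change of 1.87 (adjusted p = 2.01e-09), as were the transcription factors MYC (1.29, adjusted p = 0.000973) and EGR1 (0.51, adjusted p = 0.112). SPRED2 (-0.98, adjusted p = 0.00605), SPRY1 (-0.83, adjusted p = 0.093), DUSP6 (-0.51, adjusted p = 0.116) and IL17RD (-1.81, adjusted p = 0.0916), all inhibitors of the pathway, were higher in tibia. For SPRY1, DUSP6 and EGR1 the sites overlapped when libraries were not paired. Within the assumed pairs SPRY1 was higher in tibia each time (36.2 against 72.3 CPM in G1 and G2, 45.4 against 81.7 CPM in G3 and G4, 15.6 against 18.9 CPM in T1 and T2). DUSP6 was not higher in tibia in T1 and T2 (272 against 266 CPM). EGR1 was not higher in calvaria in G3 and G4 (1023 against 1061 CPM). IL17RD had at most 41 reads in a library. The list thus moved in both directions in macaque. In rat SPRED3 was the only gene of this list past a log2 ratio of 2, with 5 reads in calvaria and 55 in tibia.

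**Figure D5:**
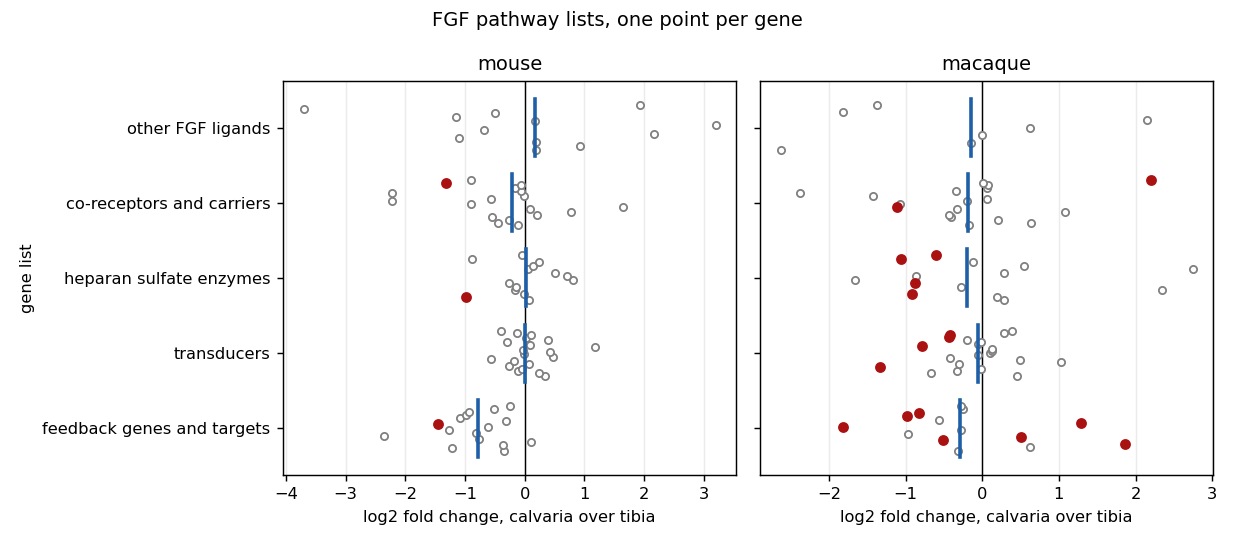
Log2 fold change, calvaria over tibia, of the genes of 5 FGF pathway lists in mouse and macaque, from the fits over all symbols; each point is a gene, filled points were called, and the vertical bar is the median of the list. In mouse the feedback genes and targets have a median of -0.78 with 1 gene called, and in macaque their called genes lie on both sides of 0.

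Markers of several cell types are given beside these results, from the fits over all symbols. There 2.28% of symbols were called in mouse and 19.7% in macaque, so small macaque counts lie near the share of symbols at large. Osteocyte markers were present in every species, and 6 of 9 were called higher in mouse tibia and 3 of 8 in macaque tibia. Their summed level was 1192 to 2144 CPM in mouse calvaria and 8459 to 11573 CPM in tibia, 542 and 7526 CPM in rat, and 5035 to 6020 CPM and 8066 to 17689 CPM in macaque. The sums were higher in tibia in all 3 species, the direction of FGF1. MEPE made up most of the macaque sums (mean 5084 CPM in calvaria and 13431.5 CPM in tibia). SOST made up most of the mouse tibia sums (mean 7131 CPM). MEPE and SOST are, like FGF1, among the genes the study selected on these samples, so the shared direction is not independent. In macaque PHEX alone leaned to calvaria (log2 fold change 0.21, edgeR adjusted p = 0.644). T2, the tibia library with the fewest FGF10 reads in macaque, had the lowest macaque tibia sum. T2 also differed from G2 and G4 in osteoblast markers, at 140647 CPM against 38840 and 38946 CPM, and in neutrophil and myeloid markers, at 14211 CPM against 7191 and 7072 CPM. Of chondrocyte markers 5 of 8 were called higher in mouse tibia, summing to 35.4 to 111 CPM in calvaria and 643 to 746 CPM in tibia, with MATN3 at 0 in calvaria. In macaque 1 of 6 was called in each direction. Of adipocyte markers 4 of 6 were called higher in mouse tibia and 3 of 5 higher in macaque calvaria.

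Blood and marrow markers moved the other way in macaque. All 6 neutrophil and myeloid markers were called higher in macaque calvaria (36792 to 60758 CPM against 7072 to 14211 CPM), as were 4 of 4 erythroid, 2 of 3 B cell and 3 of 4 osteoclast markers. In mouse 2 of 7 neutrophil and myeloid markers were called, both higher in calvaria, and 0 of 4 erythroid, 0 of 5 B cell and 0 of 6 osteoclast markers by edgeR, with 1, 0 and 0 at an unadjusted p under 0.05. Fibroblast and periosteum markers had 1 of 7 called higher in mouse calvaria and 3 of 7 higher in macaque tibia, where the sums were 749 to 1169 CPM in calvaria and 1362 to 1449 CPM in tibia. In M4 these markers summed to 2515 CPM, against 539 CPM in M8 and 762 to 798 CPM in mouse tibia. M4, the calvaria library with the higher receptor levels, also had the highest sum of osteoblast markers, at 51701 CPM against 23280 CPM in M8 and 23307 to 32662 CPM in tibia, and of osteoclast markers, at 3805 CPM against 2298 CPM in M8. M8 had more neutrophil and myeloid (120391 against 90274 CPM) and erythroid markers (2515 against 883 CPM) than M4. Endothelium and pericyte markers had 2 of 8 called higher in mouse tibia and 1 of 8 in macaque tibia, the latter not above the 19.7% of all symbols. Osteoblast markers had 0 of 8 called in mouse (0 at an unadjusted p under 0.05) and 2 of 8 called higher in macaque tibia. Skeletal muscle markers had 0 of 6 called in mouse (2 at an unadjusted p under 0.05) and 1 of 3 called higher in macaque tibia, and in rat they summed to 4.98 CPM in calvaria and 942 CPM in tibia. The part of these cell types in the FGF values was not tested.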

How the data were processed

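The paper describes mapping with HISAT2 and counting on merged exons with HTSeq, without regard to strand. The submitters' processing notes name BWA 0.7.10-r789 instead. Rat FGF1 levels in the paper lie below the 1.05 CPM (R1) and 20.0 CPM (R3) found here. The steps in the paper therefore need not be those that made the deposited counts. The deposited values used here are raw counts per gene, and the exonic length beside them served for levels per length. A normalized signal by the authors was not used. Rows naming no gene were left out (0.00261% to 0.0663% of reads) and rows of a symbol were summed. In macaque 5939 of 17111 LOC rows received a RefSeq symbol. Receptor sequences are not reported here.

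Mouse (4 libraries) and macaque (6) each had a fit of their own in edgeR 4.0.16 under R 4.3.3 (TMM, quasi-likelihood test, Benjamini-Hochberg adjustment over all tested genes). Standard errors are the log2 fold change divided by the root of F. Rat ratios used 1 added read and no TMM factors. A site with no read was set to 3 reads for a limit or a fold, and reads of the other site were taken as counted. Levels are CPM over all symbols, with TMM factors in mouse and macaque. Named genes were all 10 FGF genes, called genes of the lists and the 5 genes most like FGF1. The genes and lists were chosen with earlier results of these data known. Alternatives were other normalizations, filters and tests (DESeq2 1.42.0 among them), assumed pairs and leaving out each library. The study states that skull and tibia were paired without naming the pairs. In macaque the assumed pairs deviated together, with r of 0.182 (G1 and G2), 0.264 (G3 and G4) and 0.41 (T1 and T2) over 8045 genes. Other pairings were not compared, so these values do not establish the pairs. Steps were tested on simulated data. The rest used scipy 1.17.1, numpy 2.4.6 and pandas 2.3.3 in Python 3.11.15.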

Additional observations from a re-analysis of the deposited data

Results flagged for a closer look

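The site difference of FGF18 was called different between the data of the species by the interaction test. It was 3.75 on the log2 scale for macaque minus mouse (SE 1.12, edgeR adjusted p = 0.162). The call was lost at a false discovery rate under 0.05, and when any of M5, M7, G1, G2, G3, G4 or T1 was left out. In mouse alone FGF18 was not called (edgeR adjusted p = 0.707). Species, lane and annotation changed together. In macaque all 3 calvaria libraries lay above all 3 tibia libraries, and in mouse both tibia libraries lay above both calvaria libraries. Over the 10 libraries FGF18 had between 2 and 59 reads per library. Marrow and blood markers, which were higher in macaque calvaria, are given beside the results above, and their part in this difference was not tested.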

How the results depend on the processing

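Of 116 values of the FGF genes in mouse under alternatives, 100 kept their direction and their side of the threshold, as did 125 of 128 in macaque and 79 of 91 for the interaction. At a false discovery rate under 0.05 the calls became 0 in mouse and 0 for the interaction. Leaving out 1 library gave 0 (M5 or M7) to 7 (M4) calls in mouse and 0 to 3 (M8) for the interaction, and in mouse the 1 library left at a site is then assumed to vary like the others. The share of all tested genes called in mouse moved as well, from 0.0856% (without M7) to 47.9% (without M4). The mouse counts therefore cannot be read as specific to the FGF genes. No such share is given for the interaction with a library left out, so its counts cannot be set against genes at large. In macaque 3 of 9 were called whichever 1 library was left out. In those fits 16.6% (without G2) to 34.5% (without T2) of all tested genes were called. Over all symbols the share was 12.3% (without G3) to 26.9% (without T2). With macaque rows under their own symbol only, an alternative added after seeing the data like the interaction over symbols read in mouse and macaque, 1 gene was called, since FGF10 and FGF18 stand on LOC rows. With 5 reads added in rat, 2 genes passed the ratio. Leaving out a library turned mouse FGF10 (-0.57 to 0.85), FGFR2 (-0.49 to 0.66) and FGFR3 (-1.04 to 0.51), macaque FGF9 (-1.07 to 0.52) and FGFRL1 (-0.11 to 0.40), and the interaction of FGF9 (-0.66 to 0.96) and FGFR2 (-0.81 to 0.31). The replicate block on assumed pairs turned mouse FGF10, with 3 to 10 reads, to 0.0616 or 0.0734, and changed no call. Filtering by expression left mouse FGF10 and macaque FGF2, FGF9 and FGFR3 untested, and requiring a read in every library left macaque FGFR3 untested and called macaque FGF2. The cause of the other changes was not tested. Reads were few for FGF2, mouse and rat FGF10, rat and macaque FGF9, macaque FGFR3, and FGF18, and short rows in the tables and depth cannot be told apart there.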
